A study of Mus musculus with 4 samples.

Results

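The 10 genes described are those of the receptors, signal carriers and repressors of TGF-β signalling: Tgfbr1, Tgfbr2, Tgfbr3, Smad2, Smad3, Smad4, Smad7, Ski, Skil and Smurf2. Their locus was taken as the RefSeq gene record with 20 kb on each side, and peaks that shared at least 1 base were merged across the libraries into regions. This gave 167 regions at the 10 genes, of 93679 in the whole series. Of these, 11 lay within 1 kb of an annotated start site of the gene itself and were called promoter regions, 10 lay within 1 kb of the start site of another gene, and 146 were distal. The regions came from ATAC-seq, in which a transposase inserts adapters where DNA is free of nucleosomes, and the study asked how IL-4 acts on chromatin while TGF-β drives the iTreg programme. The starting cells were naive CD4+ T cells, defined as CD62LhighCD44lowCD25- and sorted from spleens of WT C57BL/6 males, aged 7 weeks per the labels, while the study's methods give a range around that age. They were stimulated for 48 h with plate-bound anti-CD3 at 5 µg/ml and soluble anti-CD28 at 1 µg/ml, in human TGF-β1 at 5 ng/ml and mouse IL-2 at 10 ng/ml, either without IL-4 (iTreg+PBS, 2 libraries) or with mouse IL-4 at 15 ng/ml (iTreg+IL-4, 2 libraries). Every library thus came from cells in TGF-β, and there was no library of cells without it.

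TGF-β binds a serine/threonine kinase receptor made of Tgfbr2, which holds the ligand, and Tgfbr1, which phosphorylates Smad2 and Smad3; Tgfbr3 (betaglycan) presents the ligand to them. Phosphorylated Smad2 and Smad3 join Smad4 and enter the nucleus, where Smad3 and Smad4 bind short CAGAC-type motifs beside other transcription factors. Smad7 occupies the receptor and brings the ubiquitin ligase Smurf2 to it, while Ski and Skil (SnoN) hold Smad complexes in a repressed state until they are degraded. In naive CD4+ T cells this pathway, together with the T cell receptor, switches on Foxp3, and IL-4 acts against that switch through STAT6.

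Sequences at the regions on which the description turns are given from GRCm38 (mm10), with the searched motifs in capitals on either strand. The motifs were the SMAD palindrome GTCTAGAC, the short SMAD motif CAGAC, the GC-rich SMAD motif GGCGCC, the AP-1 motif TGANTCA, the RUNX motif TGTGGT, a STAT6-type palindrome TTCNNNNGAA and a STAT5-type palindrome TTCNNNGAA; where matches overlapped, their capitals run together. Apart from the promoter, each stretch is the 200 bases around the centre of a region, read on the forward strand. Its label names the part of the gene at that centre only, so a stretch labelled as intron can also hold exon bases. The promoter of Tgfbr1 is shown because it was the strongest promoter among the receptors; its 250 bases lie directly upstream of the start site on the forward strand and come from the RefSeq promoter table (GRCm38.p6).
Tgfbr1 promoter, chr4:47352972-47353221: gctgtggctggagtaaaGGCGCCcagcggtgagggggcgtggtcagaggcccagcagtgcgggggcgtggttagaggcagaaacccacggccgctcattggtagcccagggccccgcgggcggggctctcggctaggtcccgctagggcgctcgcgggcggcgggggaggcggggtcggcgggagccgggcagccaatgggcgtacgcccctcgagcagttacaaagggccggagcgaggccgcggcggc
The strongest distal regions of Smad3 and Ski, both in intron 1, are shown next, followed by the Tgfbr2 intron 1 region that holds the palindrome GTCTAGAC.
Smad3 intron 1, chr9:63706499-63706698: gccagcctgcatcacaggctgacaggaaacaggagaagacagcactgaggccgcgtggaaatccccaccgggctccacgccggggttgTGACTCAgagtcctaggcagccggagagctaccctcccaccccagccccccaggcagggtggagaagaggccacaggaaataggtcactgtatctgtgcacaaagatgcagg
Ski intron 1, chr4:155200995-155201194: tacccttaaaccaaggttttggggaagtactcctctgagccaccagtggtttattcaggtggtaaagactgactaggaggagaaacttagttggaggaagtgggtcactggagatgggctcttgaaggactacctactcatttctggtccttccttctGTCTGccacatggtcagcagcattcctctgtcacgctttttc
Tgfbr2 intron 1, chr9:116153500-116153699: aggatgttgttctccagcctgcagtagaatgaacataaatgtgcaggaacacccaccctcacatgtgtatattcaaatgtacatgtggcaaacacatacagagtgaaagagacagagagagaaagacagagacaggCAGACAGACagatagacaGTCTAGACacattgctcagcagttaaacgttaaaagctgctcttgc
Next are a Tgfbr2 and a Smad3 region that ranked higher in both iTreg+IL-4 libraries, and a Smurf2 region that iTreg+PBS replicate 2 did not call.
Tgfbr2 intron 5, chr9:116101407-116101606: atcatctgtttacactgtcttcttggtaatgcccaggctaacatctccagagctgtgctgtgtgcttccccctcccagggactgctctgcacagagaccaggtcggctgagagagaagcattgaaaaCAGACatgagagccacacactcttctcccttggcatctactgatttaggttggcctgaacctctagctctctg
Smad3 intron 1, weaker region, chr9:63718290-63718489: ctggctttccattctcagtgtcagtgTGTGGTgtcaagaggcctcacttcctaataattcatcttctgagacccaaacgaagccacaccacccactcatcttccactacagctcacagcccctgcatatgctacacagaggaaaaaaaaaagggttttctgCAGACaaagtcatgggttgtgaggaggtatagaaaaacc
Smurf2 intron 17, chr11:106822998-106823197: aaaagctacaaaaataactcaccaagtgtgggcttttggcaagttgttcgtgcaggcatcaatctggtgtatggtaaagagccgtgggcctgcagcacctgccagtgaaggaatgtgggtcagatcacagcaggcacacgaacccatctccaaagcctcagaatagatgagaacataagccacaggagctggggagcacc
The last pair stands for regions that only 1 condition called, at Smurf2 with IL-4 and at Tgfbr2 without it.
Smurf2 intron 2, chr11:106872812-106873011: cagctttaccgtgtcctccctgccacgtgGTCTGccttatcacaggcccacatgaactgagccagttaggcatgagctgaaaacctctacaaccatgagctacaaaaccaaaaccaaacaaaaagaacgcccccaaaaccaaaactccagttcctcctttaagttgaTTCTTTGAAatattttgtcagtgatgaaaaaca
Tgfbr2 downstream, chr9:116084644-116084843: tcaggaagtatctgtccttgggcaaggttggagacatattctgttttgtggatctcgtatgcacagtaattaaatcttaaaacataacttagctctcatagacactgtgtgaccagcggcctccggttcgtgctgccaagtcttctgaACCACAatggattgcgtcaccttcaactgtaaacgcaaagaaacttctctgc
The Tgfbr1 promoter stretch holds 1 GGCGCC and the Smad3 intron 1 stretch 1 TGANTCA. The stretch of Smurf2 intron 2 holds a CAGAC on the reverse strand and a STAT5-type palindrome, and that of Smurf2 intron 17 holds none of the 7 motifs.

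The 4 peak lists differ in length, which bears on every statement about a region that is called or not. Without IL-4, replicate 1 gave 77064 peaks and replicate 2 gave 56645. With IL-4 the lists held 78670 peaks in replicate 1 and 67743 in replicate 2. The number of reads is unknown, so a region without a peak is one where no enrichment passed the threshold at that depth. Heights and −log10 q were therefore read within a list only, as a rank: the percentage of the list's peaks with a higher −log10 q, so that a low percentage is a strong peak, and a region that ranked higher is a stronger one. In a bulk library, a higher rank can reflect more cells with the region open or a more open region per cell, and these cannot be told apart. All 7 markers of CD4+ T cells (Cd3e, Cd3g, Cd4, Cd28, Lck, Cd5 and Il2ra) had a promoter region in all 4 libraries, as did Cd8b1 and Cd14, while Cd79a, Lyz2, Csf1r, Ncr1 and Klrb1c had none in any library. Ms4a1 and Itgam had a promoter region in 3 libraries, Cd8a in 2 and Pax5 in 1. The part of other cells in the results was not tested. A figure legend of the study calls the ATAC-seq samples pooled and biologically independent. How many mice or cultures made up a pool is not given, and p-values measure the spread between libraries only.

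All 10 genes had a promoter region in all 4 libraries, against 57.8% of 21774 protein-coding genes. The 2 strongest were those of Tgfbr1 and Ski. At Tgfbr1 the region (chr4:47352720-47353636, over the start site) ranked at 1.04% and 1.36% without IL-4 and at 1.39% and 1.60% with IL-4, so that fewer than 2% of all peaks were stronger in every library. The promoter region of Ski (chr4:155223003-155223740) ranked at 1.32% and 1.35% without and 1.44% and 1.21% with IL-4. It lay upstream, with its centre 836 bases before the start site, and no library called a peak in the 250 bases directly upstream of that start site, where 87.6% of bases were G or C.

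Among the other receptors, the Tgfbr2 promoter region (chr9:116174451-116176143) ranked at 15.8% and 16.1% without IL-4 and at 14.2% and 18.1% with it. The weakest promoter of the 10 was that of Tgfbr3 (chr5:107288884-107289727), at 32.7% and 35.2% without and 35.4% and 35.7% with IL-4. The promoter regions of Smad2 and Smad4 ranked above those of Tgfbr2 and Tgfbr3 in every library. Smad2 ranked at 6.00% and 10.0% without IL-4 and 4.48% and 6.67% with it, and Smad4, the partner shared by all Smad complexes, at 5.32% and 4.66% without and 4.62% and 5.53% with IL-4. The Smad3 promoter ranked at 15.9% and 19.2% without and 14.5% and 16.3% with IL-4. The ranks of Smad2, Smad3 and Smad4 overlapped between the conditions.

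At the inhibitors and repressors, the Smad7 promoter ranked at 13.7% and 18.6% without IL-4 and at 14.5% and 14.1% with it. Skil ranked at 7.25% and 10.1% without and 11.7% and 9.45% with IL-4, and Smurf2 at 8.28% and 12.5% without and 12.9% and 9.58% with IL-4. The libraries of the conditions overlapped at all of these 3 promoters. In 2 of the 10 promoters, those of Tgfbr1 and Tgfbr3, both iTreg+IL-4 libraries ranked lower than both iTreg+PBS libraries, by a mean of 0.301 and 1.61 percentage points, and in none of the 10 did both rank higher. Of 14452 regions within 1 kb of any annotated start site and called in all 4 libraries, 5.54% ranked lower and 19.8% higher in both iTreg+IL-4 libraries. When ranks were taken only among regions called in all 4 libraries, the Tgfbr3 promoter overlapped between the conditions, the Skil promoter became weaker in both iTreg+IL-4 libraries (11.7% and 12.02% without, 19.2% and 13.4% with IL-4), and the Smad2 promoter stronger (9.67% and 11.9% without, 7.37% and 9.45% with). With 2 libraries against 2, the smallest p an exact two-sided permutation test can give is 0.33, so none of these differences could pass 0.05.

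**Figure D1:**
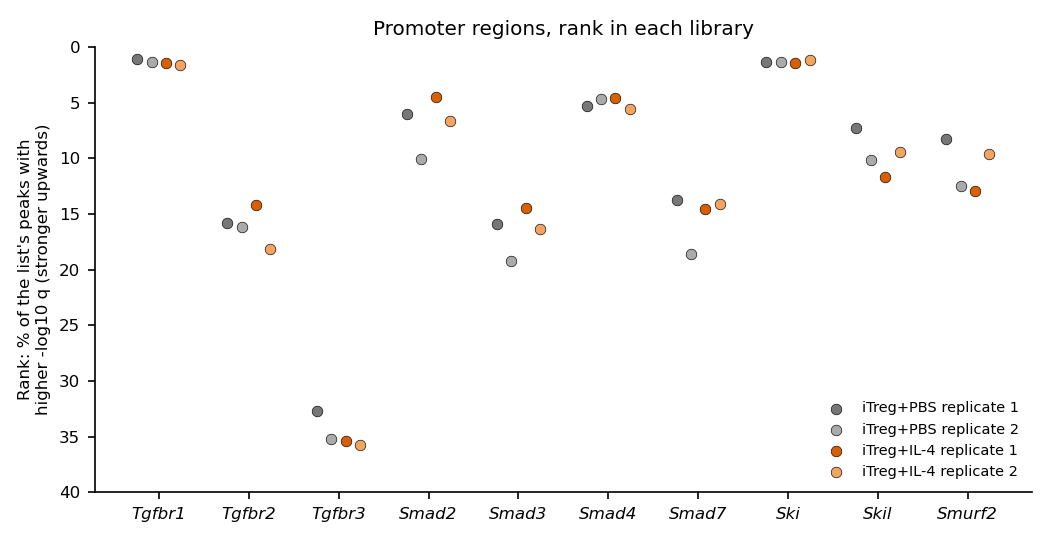
Rank of the promoter region of each gene in each of the 4 libraries, as the percentage of that list's peaks with a higher −log10 q (vertical axis, stronger peaks upwards); each point is 1 library. Tgfbr1 and Ski sit near 1% in all 4 libraries and Tgfbr3 between 32.7% and 35.7%.

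The number of regions around a gene ranged from 9 to 34. Tgfbr3 held 34 regions, Tgfbr2 26 and Smad3 25, and 99.6%, 99.0% and 98.8% of protein-coding genes, respectively, held fewer. Smad2 and Tgfbr1, with 9 regions each, held more than 79.9% of protein-coding genes, whose median was 5. Per 100 kb of locus, the highest densities were those of Skil (20.6 regions), Tgfbr2 (20.4) and Smad7 (19.0), and the lowest that of Smurf2 (7.82), against a median of 6.76 over all protein-coding genes. In density, Tgfbr3 exceeded 88.2% of protein-coding genes, Tgfbr2 97.2%, Smad3 91.5%, Tgfbr1 61.8% and Smad2 57.9%. Ski held 15 regions, Skil 14, Smad7 13, and Smad4 and Smurf2 11 each.

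**Figure D2:**
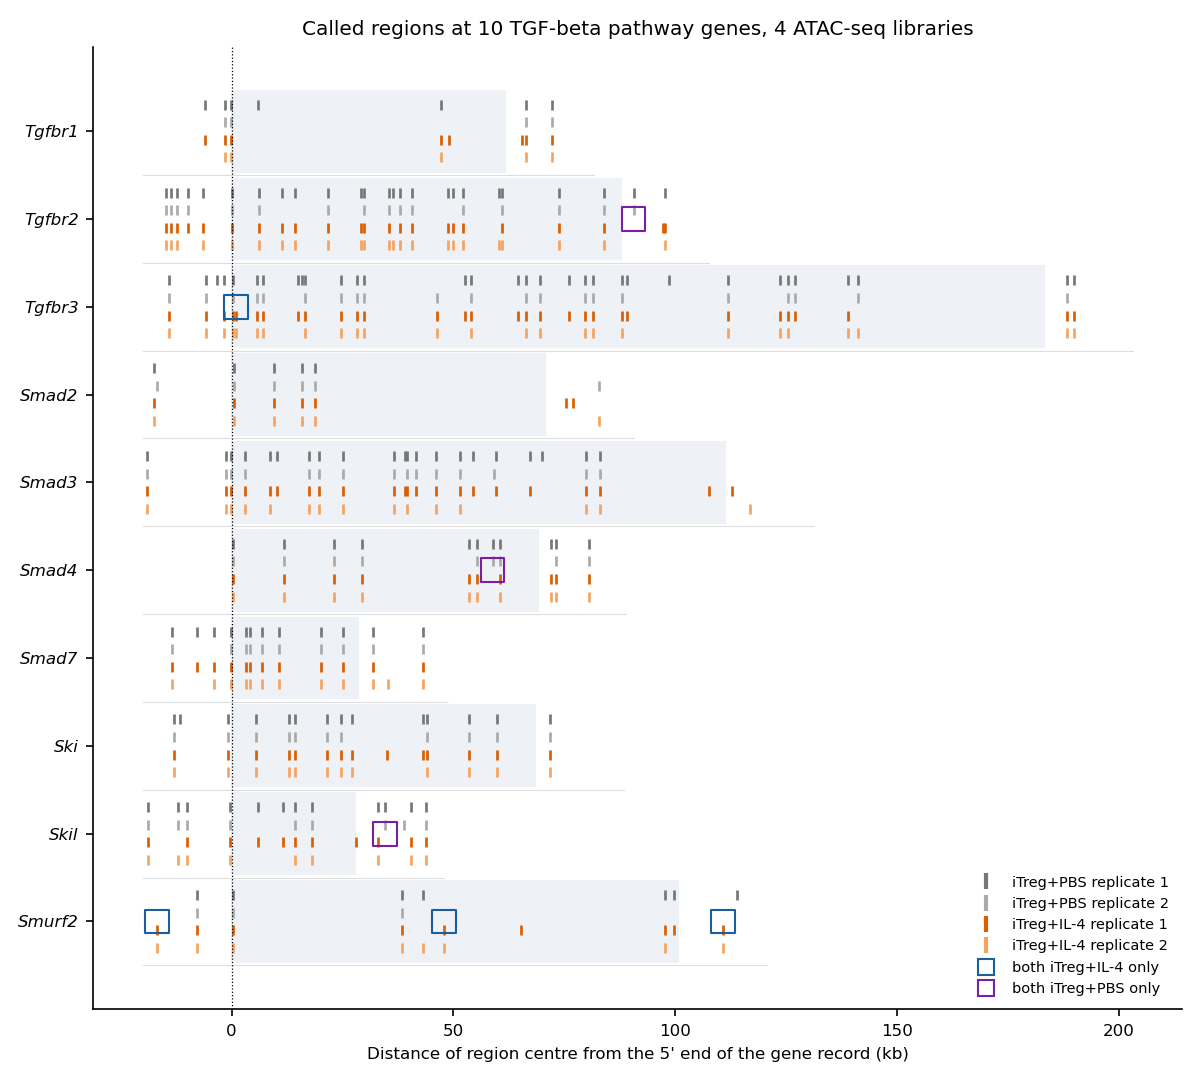
Called regions along each locus: distance of the region's centre from the 5′ end of the gene record in kb (horizontal axis, gene body shaded), with a row of ticks for each of the 4 libraries. Squares mark the 4 regions called only in both iTreg+IL-4 libraries, 3 of them at Smurf2, and the 3 called only in both iTreg+PBS libraries.

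Of the 146 distal regions, 100 lay inside the gene records and 99 of these in introns, 51 of them in intron 1. They were weaker than the promoters: the distal regions called in all 4 libraries had median ranks of 34.8% and 49.7% without IL-4 and 31.8% and 42.1% with it, against 7.77%, 11.3%, 12.3% and 9.52% for the promoters in the same order. Over all 33258 distal regions called in all 4 libraries, the medians were 37.7%, 51.2%, 37.0% and 42.7%. At Smad3 and Ski, regions of intron 1 ranked with the promoters. The strongest Smad3 region (chr9:63706252-63706945) lay 51396 bases downstream of the start site and ranked at 4.46% and 6.00% without IL-4 and at 4.93% and 5.54% with it, better than the promoter of Smad3 in every library. The strongest Ski region (chr4:155200502-155201687), 21441 bases into the gene, ranked at 2.76% and 6.64% without and 3.46% and 5.27% with IL-4. The conditions overlapped at both in these ranks. Among regions called in all 4 libraries only, the Smad3 region ranked lower in both iTreg+IL-4 libraries. It lay there at 7.18% and 7.11% without IL-4 and at 8.11% and 7.85% with it. In the whole lists, another intron 1 region of each gene ranked at 5.38%, 12.7%, 5.198% and 9.03% (Smad3) and at 8.49%, 11.2%, 9.27% and 9.31% (Ski) in the same order of libraries.

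Smad7 carried its strongest distal region in intron 3 (chr18:75377178-75378980), at 8.53% and 7.84% without and 5.73% and 8.30% with IL-4, and this too was better than the Smad7 promoter in every library. The strongest distal region of Tgfbr2 lay in intron 6 (chr9:116090967-116091717) at 12.9%, 20.6%, 15.6% and 15.95%, here and in the next sentences in the order iTreg+PBS replicates 1 and 2 and iTreg+IL-4 replicates 1 and 2. That of Tgfbr3 lay in intron 1 (chr5:107283412-107284427) at 12.4%, 19.98%, 12.9% and 14.9%. At Tgfbr1 it lay 1505 bases upstream of the start site (chr4:47351499-47351936) and ranked at 16.2%, 29.2%, 17.3% and 19.1%. All of these overlapped between the conditions. The strongest distal regions of Smad4 (intron 8, chr18:73642979-73643529) and Skil (intron 2, chr3:31108999-31109755) ranked at 15.9%, 33.0%, 14.5% and 19.5% and at 17.9%, 32.8%, 18.6% and 19.7%.

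At Smad2 and Smurf2 the strongest distal region ranked higher with IL-4. Both regions were weaker than the strongest distal regions of the other 8 genes in every library. The Smad2 region (intron 1, chr18:76256523-76257301) ranked at 31.7% and 39.7% without IL-4 (mean 35.7 ± 5.67, SD, n = 2) and at 24.1% and 22.5% with it (23.3 ± 1.12, SD, n = 2). The Smurf2 region (intron 1, chr11:106882016-106882739) ranked at 46.0% and 40.1% without (43.0 ± 4.18, SD, n = 2) and at 32.8% and 29.1% with IL-4 (30.9 ± 2.63, SD, n = 2). In both, the libraries of the conditions did not overlap, while at the strongest distal regions of the other 8 genes they did. Of all 47767 regions called in all 4 libraries, 19.7% ranked higher in both iTreg+IL-4 libraries and 5.18% lower. With 2 genes higher and 8 overlapping, the strongest distal regions thus lay near this background. When ranks were taken only among regions called in all 4 libraries, the Smurf2 region overlapped, at 70.3%, 47.1%, 53.3% and 41.1%.

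Over the 10 loci together, the conditions did not differ beyond the spread of the replicates. Of the 167 regions, 146 and 104 were called without IL-4 (125 ± 29.7, SD, n = 2) and 146 and 125 with it (135.5 ± 14.8, SD, n = 2; exact two-sided permutation test, p = 1). Peaks covered 82883 and 57925 bases of the loci without IL-4 (70404 ± 17648, SD, n = 2) and 83004 and 74958 with it (78981 ± 5689, SD, n = 2), a difference of 8577 bases (two-sided exact permutation test, p = 0.667). Without iTreg+PBS replicate 2, the library with the shortest list, the difference was -3902 bases. As a share of all peak bases of a list, the loci took 0.204% and 0.198% without and 0.197% and 0.208% with IL-4.

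Gene by gene, the covered bases of Smad2 and Smurf2 were higher in both iTreg+IL-4 libraries than in both iTreg+PBS libraries, and those of the other 8 genes overlapped. At Smurf2, peaks covered 3004 and 1535 bases without IL-4 (2270 ± 1039, SD, n = 2) and 4529 and 3369 bases with it (3949 ± 820, SD, n = 2; exact two-sided permutation test, p = 0.333, the smallest possible). The Smad2 values were 3568 and 3586 without and 3774 and 3623 with IL-4, a difference of 121.5 bases. Among 18260 protein-coding loci with a peak, 19.6% had more bases in peaks in both iTreg+IL-4 libraries and 2.32% fewer, so 2 of 10 genes and 0 of 10 lay near the background.

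**Figure D3:**
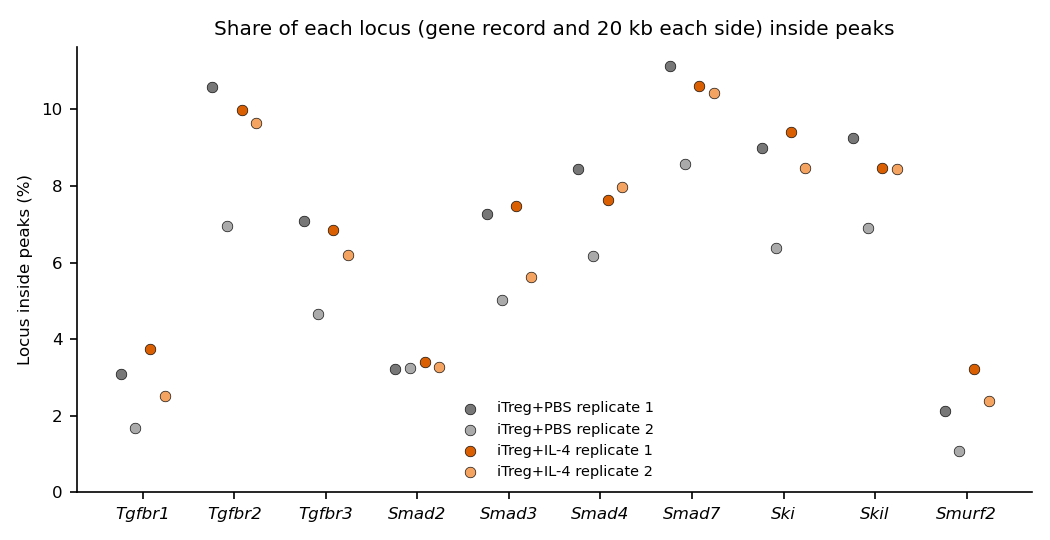
Percentage of each locus (gene record with 20 kb on each side) that lies inside peaks, for each of the 4 libraries. iTreg+PBS replicate 2 is the lowest library at every gene but Smad2, and Smurf2 and Smad2 alone have both iTreg+IL-4 libraries above both iTreg+PBS libraries.

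Of the 167 regions, 91 (54.5%) were called in all 4 libraries, against 51.0% of all regions, and of the 146 distal regions 76 (52.1%), against 44.1% of all distal regions. Another 21 (12.6%) were missing from iTreg+PBS replicate 2 alone, against 9.97% of all regions, and 22 (13.2%) were called in a single library, against 21.6%. Tgfbr2 held 7 of the 21 regions missing only from iTreg+PBS replicate 2. All 4 libraries called 10 of 13 regions at Smad7, 11 of 15 at Ski and 8 of 11 at Smad4, the highest shares among the 10 genes, and 3 of 11 at Smurf2, the lowest.

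**Figure D4:**
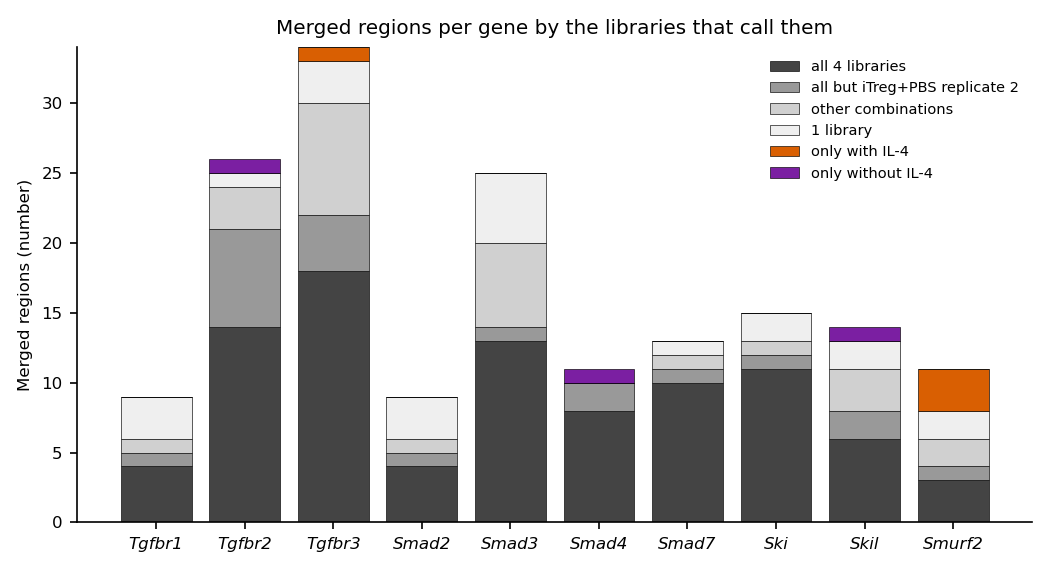
Number of merged regions per gene (bars from 0), split by the libraries that called them. Tgfbr3 has 34 regions, 18 of them in all 4 libraries, and Smurf2 11 regions, 3 in all 4 libraries and 3 called only with IL-4.

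Regions that only 1 condition called were few. The 2 iTreg+IL-4 libraries alone shared 4 of 167 regions (2.40%, against 2.60% of all regions), 3 of them at Smurf2 and 1 at Tgfbr3. The 2 iTreg+PBS libraries alone shared 3 (1.80%, against 0.699% of all regions), 1 each at Tgfbr2, Smad4 and Skil. The 3 regions of Smurf2, the ligase that Smad7 brings to the receptor, lay downstream of the gene inside Cep95 (chr11:106809746-106810286), in intron 2 (chr11:106872768-106873055) and 16772 bases upstream (chr11:106937297-106937678). In iTreg+IL-4 replicates 1 and 2 they ranked at 80.2% and 79.7%, at 87.5% and 80.3%, and at 92.6% and 83.0%, so all lay among the weakest peaks of their lists. Of the 200 bases around the centre of the downstream region, 86.0% were marked as repeats in the genome sequence. A count of at least 3 such regions at a locus, chosen after the values of Smurf2 were seen, was met by 0.312% of protein-coding loci with a peak. These loci were not matched to Smurf2 in length or number of regions, so the share does not measure how unusual Smurf2 is.

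The region of Tgfbr3 that only iTreg+IL-4 libraries called (chr5:107288465-107288731) lay in intron 1 within 1 kb of the start site, beside the promoter region, and ranked at 71.2% and 84.6%. Among regions that only iTreg+PBS libraries called, that of Tgfbr2 (chr9:116084563-116084924) lay downstream of the gene and ranked at 89.8% and 95.8%. That of Smad4 (intron 8, chr18:73644845-73645072) ranked at 78.4% and 93.2%, and that of Skil (downstream, chr3:31129532-31129793) at 76.1% and 92.4%. When every list was shortened to the 56645 strongest peaks, each of these 7 regions was called in 1 library only, and in the upper 50% of each list in none.

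With lists of equal length, 6 other regions had a peak with IL-4 in each replicate and none without it, and 0 showed the opposite. These are 4.55% and 0.00% of the 132 member regions in the shortened lists, against 1.92% and 1.03% of all regions. They lay at Tgfbr2, which held 2, and at Tgfbr1, Tgfbr3, Smad7 and Smurf2, with 1 each, and in the whole lists iTreg+PBS replicate 1 called every one of them as well. The region in intron 17 of Smurf2 (chr11:106822724-106823471) ranked at 92.8% in iTreg+PBS replicate 1, was not called in iTreg+PBS replicate 2, and ranked at 50.0% and 46.9% with IL-4. The Tgfbr2 region in intron 3 (chr9:116126477-116126832) ranked at 96.4% in iTreg+PBS replicate 1, was not called in replicate 2, and ranked at 58.9% and 51.9% with IL-4. These 2 regions, described after their values were seen, showed the largest differences of the 167 regions when a region without a peak was placed after every peak of its list, at 47.9 and 42.8 percentage points. On that scale 33 regions (19.8%, against 15.6% of all regions) ranked higher in both iTreg+IL-4 libraries and 8 (4.79%, against 3.99%) lower. Smurf2 held 5 of the 33, of 11 regions, Tgfbr3 8 of 34, Tgfbr2 7 of 26 and Smad4 4 of 11, while Skil and Tgfbr1 held none.

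Among the 91 regions called in all 4 libraries, 19 (20.9%, against 19.7% of all such regions) ranked higher in both iTreg+IL-4 libraries than in both iTreg+PBS libraries, and 4 (4.40%, against 5.18%) ranked lower. Ranked among regions called in all 4 libraries only, which takes out the weak peaks of the longer lists, the counts were 21 (23.1%, against 14.3%) and 11 (12.1%, against 12.7%). Of these 21, 7 lay at Tgfbr3, which had 18 regions called in all 4 libraries, 4 at Tgfbr2, which had 14, and 4 at Smad3, which had 13. Of the 11 that ranked lower, 3 lay at Smad7, which had 10 such regions and 0 higher. Another 2 lay at Ski, which had 11 such regions and 1 higher. Leaving out iTreg+PBS replicate 2 gave 32 of 112 regions higher (28.6%, against 24.3% of all regions) and 36 lower (32.1%, against 36.0%), and leaving out iTreg+PBS replicate 1 gave 67 of 92 higher (72.8%, against 70.8%). Leaving out iTreg+IL-4 replicate 1 gave 26 of 93 higher (28.0%, against 30.2%) and 15 lower (16.1%, against 17.9%), and leaving out iTreg+IL-4 replicate 2 gave 55 of 93 higher (59.1%, against 48.4%) and 10 lower (10.8%, against 12.5%).

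Among the 19 regions that ranked higher with no overlap between the conditions, the 5 with the largest rise were all intronic. Larger rises in the mean, such as 23.2 percentage points at another intron 1 region of Smad3 (30.3% and 69.96% without, 19.6% and 34.2% with IL-4), occurred where the libraries overlapped. Ranked among regions called in all 4 libraries, that Smad3 region did not overlap, at 48.5% and 79.8% without and 32.3% and 48.2% with IL-4. The Tgfbr2 region in intron 5 (chr9:116100847-116102167) was the strongest of them, at 29.4% and 41.3% without IL-4 (35.3 ± 8.42, SD, n = 2) and 16.7% and 23.3% with it (19.96 ± 4.68, SD, n = 2). Ranked by height within each list, it lay at 32.2% and 43.4% without IL-4 and at 17.7% and 23.5% with it. The Smad3 region in intron 1 (chr9:63718232-63718547) ranked at 72.2% and 67.4% without (69.8 ± 3.36, SD, n = 2) and at 47.4% and 49.4% with IL-4 (48.4 ± 1.38, SD, n = 2). This region lay in the same intron as the strong Smad3 region, which overlapped between the conditions in whole-list ranks. Among regions called in all 4 libraries only, that strong region ranked lower in both iTreg+IL-4 libraries. The Tgfbr3 region in intron 3 (chr5:107207863-107208436) ranked at 61.9% and 85.0% without (73.5 ± 16.3, SD, n = 2) and at 50.5% and 52.9% with IL-4 (51.7 ± 1.73, SD, n = 2).

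A second Tgfbr2 region, in intron 1 (chr9:116139686-116139941), ranked at 73.8% and 89.5% without IL-4 and at 65.0% and 69.6% with it. The Smad4 region in intron 8 (chr18:73648405-73648737) ranked at 85.2% and 72.1% without and at 70.8% and 50.6% with IL-4, and its libraries overlapped when ranks were taken among regions called in all 4 libraries. The other 4 regions stayed apart in that ranking: the Tgfbr2 region in intron 5 lay at 47.1% and 48.5% without and at 27.4% and 32.9% with IL-4, and the Smad3 region at 92.6% and 77.3% without and at 72.9% and 67.8% with it. Besides the promoters of Tgfbr1 and Tgfbr3, 2 regions ranked lower in both iTreg+IL-4 libraries. The Smurf2 region 7833 bases upstream (chr11:106928412-106928684) ranked at 69.0% and 54.3% without and at 69.6% and 75.3% with IL-4, and 96.0% of the 200 bases around its centre were marked as repeats. The Ski region in intron 1 (chr4:155209228-155209847) ranked at 68.4% and 66.7% without and at 80.0% and 71.9% with IL-4, and it overlapped in the other ranking.

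**Figure D5:**
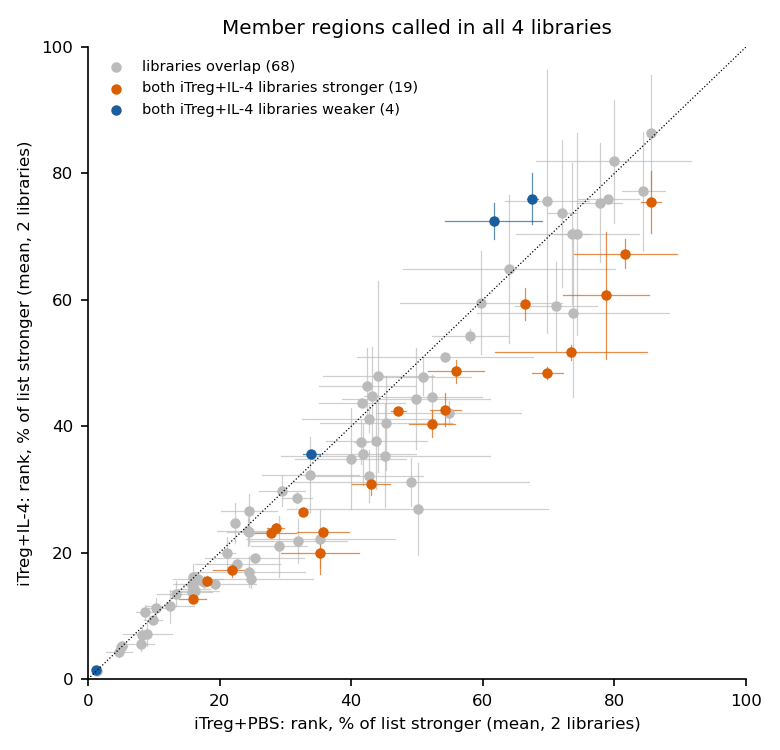
Mean rank without IL-4 (horizontal axis) against mean rank with IL-4 (vertical axis) of the 91 regions called in all 4 libraries, as the percentage of a list's peaks with a higher −log10 q; lines run between the 2 libraries of a condition. The 19 regions in orange rank higher in both iTreg+IL-4 libraries and lie below the diagonal, and the 4 in blue rank lower.

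The SMAD palindrome GTCTAGAC was found in 2 of the 167 regions anywhere along their length (1.20%, against 0.630% of 93503 regions on the chromosomes searched), and the regions of the members hold 100806 bases in all. The Smad7 promoter held it 185 bases upstream of the start site, and a Tgfbr2 region in intron 1 (chr9:116152822-116154378) held it 21705 bases downstream. That Tgfbr2 region ranked at 29.4% and 34.0% without IL-4 and at 27.8% and 29.6% with it. In the Tgfbr2 stretch printed above, the palindrome follows a pair of overlapping CAGAC motifs, and 46.0% of the stretch was marked as repeats. Of the 250-base stretches upstream of 32851 start sites in the RefSeq promoter table, 0.167% held the palindrome. The table held 6 stretches for Tgfbr1, Tgfbr2, Smad3, Ski and Smurf2, and none of the 6 held the palindrome, while 3 held CAGAC, against 42.2% of all stretches, and 3 GGCGCC, against 9.59%.

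The shares of the other motifs at the 10 genes lay close to those of all regions, with no test made. Within 100 bases of the centre, CAGAC occurred in 39.5% of member regions against 41.2% of all regions, GGCGCC in 4.79% against 5.31%, TGANTCA in 15.6% against 12.9% and TGTGGT in 24.0% against 21.4%. The STAT6-type palindrome TTCNNNNGAA occurred in 5.99% against 5.84%, and the STAT5-type palindrome TTCNNNGAA in 8.38% against 8.47%. A match is a run of letters and does not show that a factor binds there. The median GC content of the 200 bases was 74.5% in the promoter regions of the 10 genes and 49.0% in their distal regions, against 48.0% in all distal regions. It was not taken over all promoter regions, so the promoter value has no background beside it.

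The other receptors, Smads and modifiers of the TGF-β family are given for comparison. The list held 20 genes: the activin and BMP receptors Acvr1, Acvr1b, Acvr2a, Acvr2b, Bmpr1a, Bmpr1b and Bmpr2, the coreceptor Eng, Smad1, Smad5, Smad6 and Smad9, the ligases Smurf1 and Nedd4l, the deubiquitinase Usp15, and Zfyve9, Bambi, Tgif1, Tgif2 and Pmepa1. A promoter region was called in all 4 libraries for 17 of the 20. Bmpr1b had it in no library, Eng in 1 and Smad9 in 2. Among their 183 regions, 99 (54.1%, against 51.0% of all regions) were called in all 4 libraries. Only with IL-4, 3 were called (1.64%, against 2.60%), at Smurf1, Nedd4l and Usp15, and 0 (0.00%, against 0.699%) only without it. Of the 99, 25 (25.3%, against 19.7%) ranked higher in both iTreg+IL-4 libraries and 13 (13.1%, against 5.18%) lower. Of the 17 promoters, those of Smad1, Smurf1, Bambi and Tgif2 ranked higher in both iTreg+IL-4 libraries (4, or 23.5%, against 19.8% of regions near a start site), and that of Acvr2a lower (1, or 5.88%, against 5.54%).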

How the data were processed

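ATAC-seq was performed on 2 iTreg+PBS and 2 iTreg+IL-4 libraries, grouped by the treatment in the labels. The authors mapped reads from the BGISEQ-500 platform to mm10 and called peaks in each library; the submitters' processing notes name Bowtie2 2.2.5, MACS2 2.1.2 and bedtools 2.16.2. Caller parameters, the shift of transposase cuts and duplicate removal are not given in the sources used here. The authors deposited, for each peak, a −log10 q value and a pileup height (signal) that MACS2 made from the mapped fragments of that library, and neither was scaled between libraries. The lists have no header, so both columns were recognised from their values, with a lowest −log10 q of 1.31.

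Peaks were merged with Python 3.11.15 and numpy 2.4.6, annotated with RefSeq on GRCm38.p6, and sequences were read with pysam 0.24.0. Counts of regions were described without a test, and totals per library were compared by an exact permutation test written in Python. The procedure was tested on simulated lists. Regions named were every promoter, every region of 1 condition only, the strongest distal region of each gene and the 5 largest rank differences in each direction that did not overlap; 7 further regions, at Smurf2, Tgfbr2, Smad3, Smad4 and Ski, were chosen after their values were seen. The genes and lists were chosen with earlier results of these data known. Replicate numbers are not stated to pair the libraries. Alternatives were other flanks, list lengths, overlaps, ranks, start sites, single libraries left out and the replicate block. Sequences were printed for some regions of Tgfbr1, Tgfbr2, Smad3, Ski and Smurf2 only, and 1 B cell marker is not reported here.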

Additional observations from a re-analysis of the deposited data

How the results depend on the processing

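Of 85 values recomputed under other settings, 59 stayed within 1.5 times or kept their direction. The covered bases reversed to -3902 without iTreg+PBS replicate 2 (range -3902 to 21056 over the libraries left out). Leaving out each library in turn gave 5 to 25 regions called only with IL-4 (3.05% to 15.3%, against 3.41% to 13.6% of all regions), 5 to 10 only without it (2.98% to 6.10%, against 1.5% to 8.21%), 26 to 67 ranked higher with IL-4 (28.0% to 72.8%, against 24.3% to 70.8%) and 5 to 36 lower (5.43% to 32.1%, against 9.94% to 36.0%). The upper 50% of each list gave 80 regions, 51 in all libraries, 0 only without IL-4 (against 0.301% of all regions), 10 higher (19.6%, against 19.7%) and 2 lower (3.92%, against 4.17%). Lists of equal length gave 0 only without IL-4, 19 higher (24.4%, against 14.0%) and 10 lower (12.8%, against 12.5%). A flank of 50 kb gave 7 only with IL-4 (2.98%, against 2.60%), and a reciprocal overlap of 50% gave 9 (5.39%, against 3.64%). Ranking among regions called in all libraries gave 11 lower (12.1%, against 12.7%), and placing uncalled regions last, an alternative added after seeing the data, gave 33 higher (19.8%, against 15.6%) and 8 lower (4.79%, against 3.99%). With the replicate block, comparing same-numbered libraries, 45 of 91 regions ranked higher (49.5%, against 43.4% of all regions) and 6 lower (6.59%, against 12.3%). Same-numbered libraries deviated together at the 91 regions (Pearson's r = 0.418, across regions). Over all 47767 regions called in all 4 libraries, Pearson's r was 0.452. Whether same-numbered libraries share more than a number is not stated. The causes were not tested. Depth is unknown, so weak regions called in few libraries are the least certain.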

Other observations

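The widest peak at the 10 genes lay in intron 1 of Smad4 (chr18:73689562-73694214). Without IL-4 it spanned 4531 bases in replicate 1 and 3713 in replicate 2, and with IL-4 4453 in replicate 1 and 4598 in replicate 2, and only 23, 25, 21 and 10 peaks of the respective lists were wider. Its rank was intermediate, at 42.7% and 40.4% without IL-4 and 41.0% and 34.1% with it, and 84.8% of its bases were marked as repeats in the genome sequence. Over the distal regions of the 10 genes, 8.90% of the 200-base stretches had more than 50% of bases marked as repeats, against 15.1% of all distal regions.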
